A study of Mus musculus with 6 samples.

Results

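The 32 genes described here cover the making, uptake, storage and export of cholesterol and the proteins that control them. They were chosen by name, with earlier results of these data known, and all 32 were found among the 23337 genes of the deposited expression table. They fall into 17 enzymes of sterol and isoprenoid synthesis, 2 genes of lipoprotein uptake, 6 genes of SREBP2 processing, 2 genes of sterol storage and carriage, and 5 genes of the LXR and efflux arm. Spleens of wild-type and Stab1-/- mice, both labelled C57BL/6, were digested with collagenase, and the CD31+ CD45- cells, labelled blood endothelial cells, were sorted for RNA. The product of Stab1, stabilin-1 or Clever-1, is an endocytic receptor for modified lipoproteins and other cargo, and by its title the study concerns its role in how spleen vessels and lymphocytes interact. Each genotype had 3 libraries, called WT 1, WT 3, WT 4, KO 2, KO 3 and KO 4 after the deposited columns, and values of single libraries are given in that order. The age and sex of the mice, the allele's construction and whether each library came from its own animal are not given in the sources used here, so p-values measure the spread between these libraries, which may be technical.

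Cells make cholesterol from acetyl units through mevalonate, isoprenoid pyrophosphates, squalene and lanosterol. When the membrane of the endoplasmic reticulum runs low in sterol, the escort protein SCAP carries the transcription factor precursor SREBP2 to the Golgi, where the proteases encoded by Mbtps1 and Mbtps2 release its active part, which switches on the synthesis genes and Insig1. INSIG proteins hold SCAP back when sterol is plentiful. The LXR receptors, which sense oxysterols, act in the opposite sense and switch on export genes such as Abca1 and Abcg1, and Mylip, whose product marks lipoprotein receptors for degradation. Endothelial cells both make sterol and receive it from lipoproteins.

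The libraries held 40274424 to 51498038 reads over genes, recovered from the deposited values. The error from counting reads is thus small for genes at several RPKM (reads scaled for gene length and library size). The number of RNA molecules behind those reads is not known. Stab1 was at 21.6 to 43.6 RPKM in wild type and 2.32 to 2.62 in knockout. All 10 endothelial markers listed were high enough to test, with Pecam1 at 273 RPKM or more, while Ptprc, which encodes CD45, reached at most 0.110. Differences are log2 fold changes, knockout minus wild type, of log2(RPKM + 0.5), which understates the change of low genes, and a gene is called where its adjusted p in limma over 11035 genes is under 0.05.

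Mean levels in wild type ran from 0.230 RPKM for Vldlr to 198 for Apoe (the plot of levels by gene). Apoe was the highest of the 32, at 198 ± 32.1 (SD, n = 3 here and below). Hmgcs1 at 99.5 ± 15.2 and Nr1h2 at 99.2 ± 4.33 came next and did not differ beyond their spread. Scap (54.2 ± 9.97) and Dhcr7 (50.5 ± 6.71) followed and overlapped each other. Below them came Insig2 (36.3 ± 3.34), Ebp (34.1 ± 3.77) and Mbtps1 (32.6 ± 10.9), whose libraries overlapped in turn. At the low end stood Lss at 2.84 ± 0.971, Nr1h3 at 2.05 ± 0.369, Mbtps2 at 1.63 ± 0.152 and Idi1 at 1.06 ± 0.290. Vldlr, a lipoprotein receptor gene, measured 0.271, 0.219 and 0.200 RPKM in wild type against 0.30, 0.182 and 0.115 in knockout, and was the only one of the 32 below the filter for testing.

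**Figure D1:**
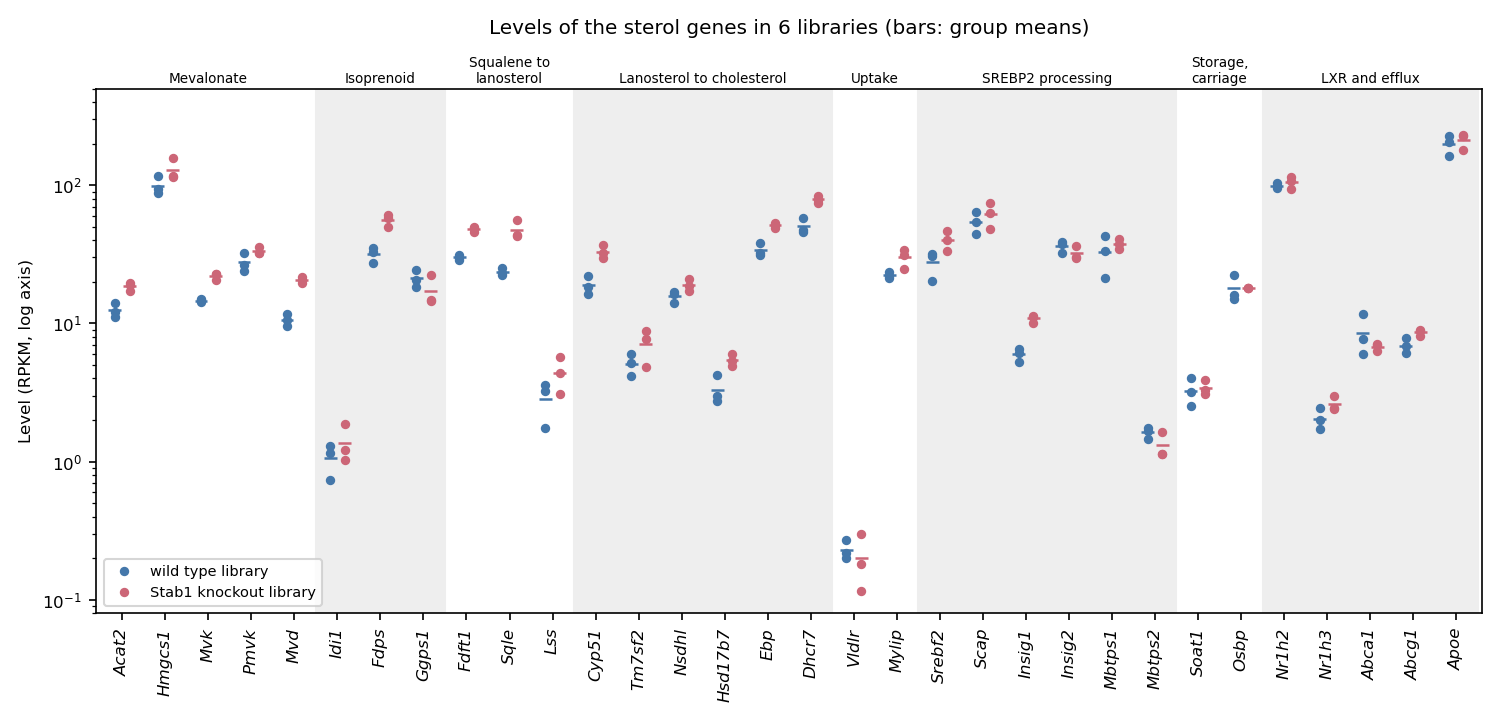
Level of each of the 32 genes in RPKM (log axis) in the 3 wild-type and 3 Stab1 knockout libraries, ordered by role; points are libraries and short bars group means. Knockout points lie above all wild-type points for Mvk, Mvd, Fdps, Fdft1, Sqle, Cyp51, Ebp, Dhcr7 and Insig1, while the groups overlap for Apoe, Nr1h2 and Abca1.

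The synthesis enzymes were the arm with most calls. Of the 17, all of them tested, 8 were higher in knockout and none lower, 16 had a log2 fold change above 0, with a median of 0.58. Over all genes tested, 54.3% had a log2 fold change above 0, 15.7% had an unadjusted p under 0.05, 0.671% were called higher and 1.27% lower (1.94% in either direction), and the median was 0.026. Of 6 SREBP2 processing genes 1 was higher, Insig1, with a median of 0.22. None of the 5 LXR and efflux genes was called (0 at an unadjusted p under 0.05 in limma, 0 called in voom), with a median of 0.11, and neither was Soat1, Osbp or Mylip. The genotypes were free of overlap for 11 of the 17 enzymes and for 4 of the other 14 genes tested, against 20.3% of all genes tested. The total of 9 called genes was 2 without KO 3, 4 without KO 2, 5 without WT 3, and 3 when low genes were left unfiltered. The share of all genes called, in either direction, was 0.507%, 0.752%, 1.52% and 0.435% in these 4 fits. With libraries weighted by an estimated quality, which called 33.1% of all genes, 14 of the sterol genes were called higher and 2 lower. In the authors' deposited table, where 1.57% of genes had an adjusted p under 0.05, 8 of the same 9 passed, the exception being Mvk at 0.0586. Differences between the arms were not tested, since the genes of an arm are not replicates and were chosen with earlier results known. In GRCm38 the 9 called genes lie apart from each other: Mvk at chr5:114444264-114460591, Mvd at chr8:122433596-122443422, Fdps at chr3:89093588-89101967, Fdft1 at chr14:63145150-63181687, Sqle at chr15:59315092-59331193, Cyp51 at chr5:4080674-4104697, Ebp at chrX:8185329-8193512, Dhcr7 at chr7:143823167-143848410 and Insig1 at chr5:28071412-28078662.

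**Figure D2:**
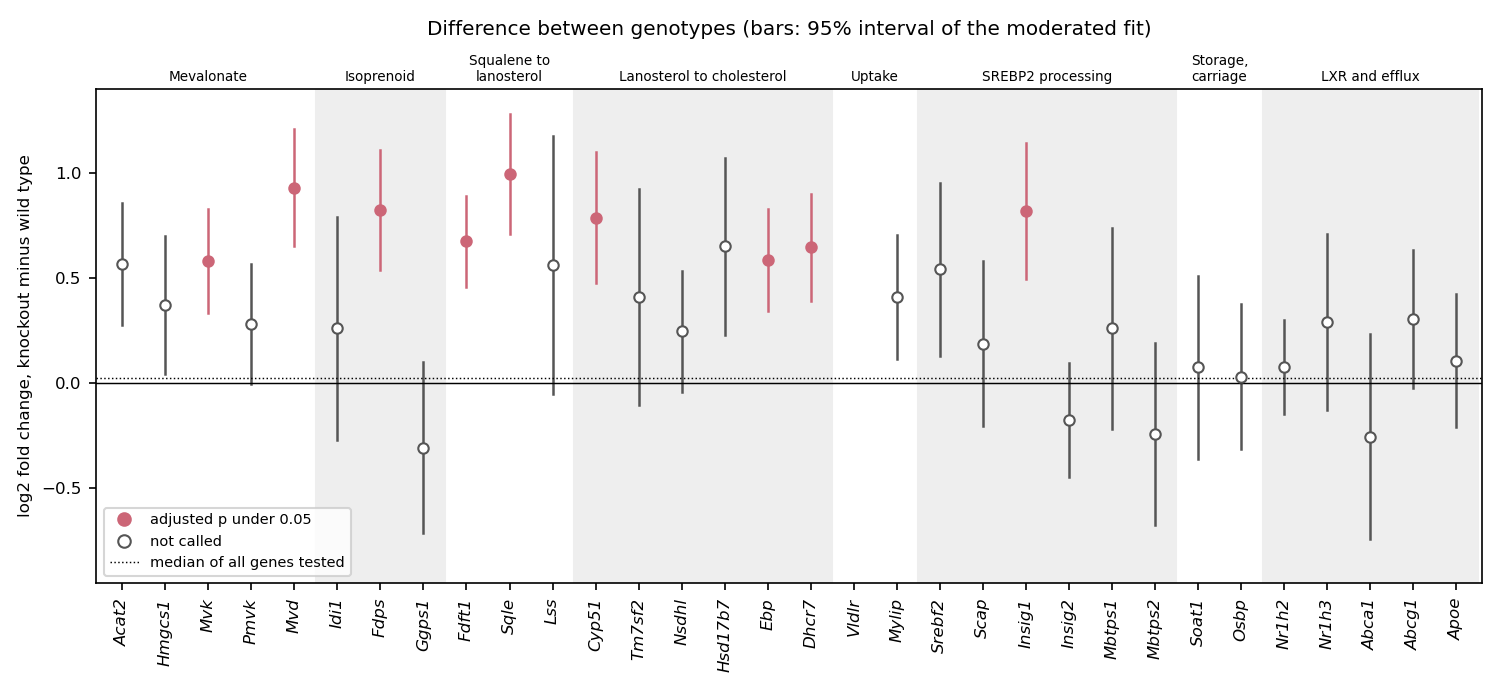
log2 fold change (knockout minus wild type) of the 31 genes tested, by role; bars are 95% intervals of limma's moderated fit, filled points have an adjusted p under 0.05 and the dotted line is the median of all genes tested. The 9 filled points are 8 synthesis enzymes and Insig1, from 0.58 to 0.99.

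Promoter sequences are shown for the 6 called genes that have one in the table used. SREBP2 is known to work with NF-Y, a factor that binds the CCAAT box, and whether either had a part in the rise was not tested. Hmgcs1, which was not called, is shown for its match to the sterol regulatory element. RefSeq promoter sequences (GRCm38) were matched for 28 of the 32 genes, without Fdps, Fdft1, Sqle and Abcg1. Each is the stretch of 250 bases before the most upstream start that this promoter table gives, written 5′ to 3′ along the gene's strand, with every CCAAT on either strand in capitals (CCAAT or its reverse complement ATTGG). In Hmgcs1 the match to the sterol regulatory element TCACNCCAC is in capitals too, and Dhcr7 has an exact match to neither motif. For 17 of the 28 genes the RefSeq gene record begins right after the window. For the other 11 it begins 3 to 7713 bases further upstream, by 5 bases in Mvk, 2122 in Apoe and 7713 in Nr1h3, so these windows do not lie wholly before the gene.

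Mvk (chr5:114444019-114444268, plus strand): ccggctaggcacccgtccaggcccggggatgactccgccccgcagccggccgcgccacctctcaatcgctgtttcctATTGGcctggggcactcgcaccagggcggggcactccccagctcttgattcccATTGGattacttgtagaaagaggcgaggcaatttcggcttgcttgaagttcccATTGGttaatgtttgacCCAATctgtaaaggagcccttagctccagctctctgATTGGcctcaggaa

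Mvd (chr8:122443423-122443672, minus strand): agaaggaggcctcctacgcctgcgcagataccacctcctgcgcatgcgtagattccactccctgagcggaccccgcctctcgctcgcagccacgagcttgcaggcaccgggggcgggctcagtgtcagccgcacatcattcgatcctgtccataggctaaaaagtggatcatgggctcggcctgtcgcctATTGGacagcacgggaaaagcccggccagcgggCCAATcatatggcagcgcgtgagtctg

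Cyp51 (chr5:4104698-4104947, minus strand): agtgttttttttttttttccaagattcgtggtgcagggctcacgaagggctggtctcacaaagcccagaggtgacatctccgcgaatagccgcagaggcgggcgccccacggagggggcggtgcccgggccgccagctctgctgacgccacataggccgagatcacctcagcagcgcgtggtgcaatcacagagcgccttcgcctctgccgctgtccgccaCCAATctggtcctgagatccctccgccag

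Ebp (chrX:8193513-8193762, minus strand): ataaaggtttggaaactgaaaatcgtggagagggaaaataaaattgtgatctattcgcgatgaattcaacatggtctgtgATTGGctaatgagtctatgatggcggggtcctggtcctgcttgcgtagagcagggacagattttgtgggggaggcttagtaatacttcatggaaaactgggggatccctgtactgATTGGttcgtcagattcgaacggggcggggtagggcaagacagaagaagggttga

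Dhcr7 (chr7:143822917-143823166, plus strand): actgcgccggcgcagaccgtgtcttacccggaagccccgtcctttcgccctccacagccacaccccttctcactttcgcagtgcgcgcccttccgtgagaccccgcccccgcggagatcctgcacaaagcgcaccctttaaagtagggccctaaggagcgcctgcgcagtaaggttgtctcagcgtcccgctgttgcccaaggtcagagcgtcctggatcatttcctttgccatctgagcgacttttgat

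Insig1 (chr5:28071162-28071411, plus strand): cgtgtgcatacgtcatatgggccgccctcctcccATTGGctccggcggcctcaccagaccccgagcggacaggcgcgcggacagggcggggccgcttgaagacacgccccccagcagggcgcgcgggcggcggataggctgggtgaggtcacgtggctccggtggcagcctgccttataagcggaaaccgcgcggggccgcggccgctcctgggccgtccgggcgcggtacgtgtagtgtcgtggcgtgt

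Hmgcs1 (chr13:119690101-119690350, plus strand): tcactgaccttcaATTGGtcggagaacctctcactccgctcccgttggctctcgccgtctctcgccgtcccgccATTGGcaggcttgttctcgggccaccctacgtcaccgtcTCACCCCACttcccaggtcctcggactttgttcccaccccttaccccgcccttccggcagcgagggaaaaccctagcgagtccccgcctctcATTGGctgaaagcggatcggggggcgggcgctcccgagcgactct

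A CCAAT stood in 12 of 14 synthesis promoters, all but Acat2 and Dhcr7, and in 6 of the other 14, against 36.6% of 7930 tested genes and 34.5% of 27025 genes with such a window. Mvk had 5, of which the nearest began 14 bases before the start, and Mvd had 2, at 60 and 27 bases. Cyp51 had 1 at 29 bases, and Insig1 1 at 216 bases. The GC box GGGCGG was present in the same number of synthesis promoters, 12 of 14, and in 6 of the other 14, against 61.7% of tested genes. TCACNCCAC was matched in Hmgcs1 alone, 137 bases before the start, among the 28, and in 0.946% of tested genes. The E-box CACGTG was matched in Hsd17b7, Insig1 and Abca1, against 8.54% of tested genes, and the DR4 repeat of LXR elements in 0 of the 28 and 0.0252% of tested genes. Both strands were searched, no match was required to stand apart from another motif, and a match is a description of letters, not of binding. Only exact matches were counted, so a window without a match may still hold a variant of the element. Of the 6 called genes with a window 5 had a CCAAT, and of the 22 others 13 did. No link between motifs and calls was tested.

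**Figure D3:**
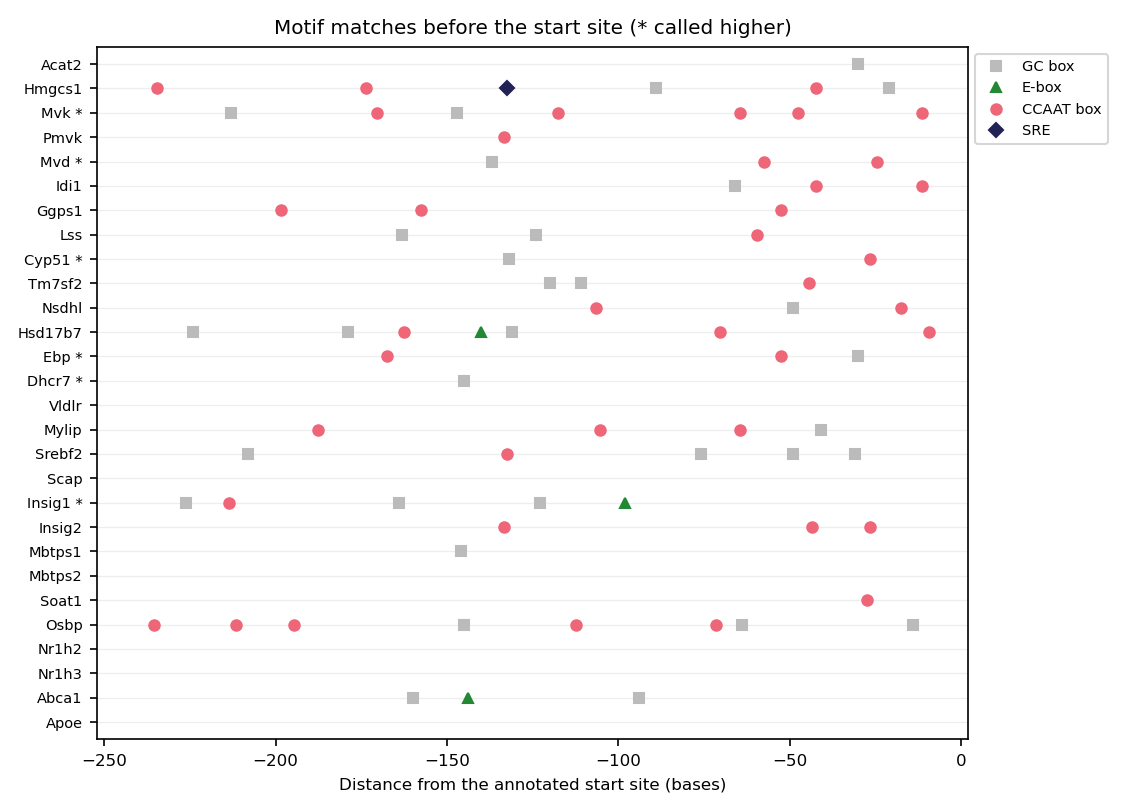
Matches to the CCAAT box, the GC box, the E-box and the sterol regulatory element (SRE) in the 250 bases before the start given by the promoter table for 28 genes, by distance from the start in bases; a star marks genes called higher in knockout. CCAAT matches lie in 12 of the 14 synthesis genes from Acat2 down to Dhcr7, and none lies in Nr1h2, Nr1h3, Abca1 or Apoe.

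In the mevalonate steps, Mvd and Mvk rose. Mvd, which encodes the decarboxylase that makes isopentenyl pyrophosphate, measured 10.5, 9.61 and 11.8 RPKM in wild type against 19.7, 20.6 and 21.7 in knockout. The groups were far apart and each was tight (log2 fold change 0.93 ± 0.12 SE, adjusted p = 0.00670). Mvk, mevalonate kinase, measured 14.7, 14.2 and 14.9 RPKM in wild type against 20.7, 22.8 and 22.7 in knockout (log2 fold change 0.58 ± 0.11 SE, adjusted p = 0.0310). No wild-type library came near the lowest knockout library, yet the call of Mvk was kept only without WT 1 among the 6 fits that leave out a library, and ended in those without WT 3, WT 4, KO 2, KO 3 or KO 4 (at most 0.161). It also ended when low genes were left unfiltered (0.0546) and in voom (0.0502).

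The first enzymes of the branch were not called. Acat2, the cytosolic thiolase that joins acetyl units (not the esterifying enzyme of the same older name), measured 12.1, 11.2 and 14.0 RPKM in wild type against 17.1, 19.0 and 19.8 in knockout (log2 fold change 0.57 ± 0.13 SE, adjusted p = 0.0643, and 0.0141 to 0.255 over 16 alternatives). The groups did not overlap, and its close copy Acat3 never exceeded 0.055 RPKM. Hmgcs1, the synthase that feeds the rate-limiting reductase, measured 87.8, 94.0 and 117 RPKM in wild type against 115, 116 and 157 in knockout. KO 4 stood alone above the rest and WT 4 lay inside the knockout range (log2 fold change 0.37, 95% interval 0.04 to 0.70, adjusted p = 0.262). Pmvk, phosphomevalonate kinase, overlapped as well, at 27.7 ± 4.42 and 33.5 ± 1.70 RPKM (adjusted p = 0.325).

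Of the isoprenoid genes, Fdps alone was called. It encodes farnesyl pyrophosphate synthase, at the fork between sterols and other isoprenoids, and measured 32.7, 27.2 and 35.3 RPKM in wild type against 49.7, 61.1 and 58.3 in knockout (log2 fold change 0.82 ± 0.13 SE, adjusted p = 0.0134). The groups were far apart, and the call was lost without KO 3 (0.0766) and when low genes were left unfiltered (0.0687). In GENCODE 77.4% of its exonic bases are shared with Gm43738, a gene model on the same strand that is no row of the deposited table. Ggps1, which takes farnesyl pyrophosphate on to geranylgeranyl pyrophosphate and so away from sterols, measured 20.8, 18.4 and 24.3 RPKM in wild type against 14.7, 14.6 and 22.5 in knockout. It was the only enzyme with a negative log2 fold change (-0.31, 95% interval -0.71 to 0.10, adjusted p = 0.430), KO 4 lay within the wild-type range, and the sign turned once GC and length trends were removed. The ratio of the Fdps level to the Ggps1 level was 1.57, 1.48 and 1.45 in wild type against 3.38, 4.19 and 2.59 in knockout. These ratios did not overlap, and a two-sided exact permutation test of their log2 values gave p = 0.1 (0.175 adjusted over the 7 ratios computed), and 3 libraries against 3 allow no smaller p. Idi1, the isomerase gene, was low in both groups at 1.06 ± 0.290 and 1.37 ± 0.447 RPKM (adjusted p = 0.609), and its close copy Idi2 was at 0.00976 or less.

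Squalene synthesis and its oxidation moved together. Fdft1, squalene synthase, the first enzyme committed to sterols, measured 29.9, 28.9 and 31.5 RPKM in wild type against 45.9, 50.1 and 49.1 in knockout (log2 fold change 0.68 ± 0.096 SE, adjusted p = 0.00874, and 0.0620 without KO 3). GENCODE exons of Fdft1 share 774 bases, 20.9% of its exonic length, with Ctsb on the other strand, and the kit does not mark strand. Ctsb, a cathepsin gene, had 574 ± 55.8 RPKM in wild type, and in knockout it had 563 ± 63.5 (adjusted p = 0.917).

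Sqle, squalene epoxidase, had the highest log2 fold change of the 31 genes tested, though it and Mvd did not differ beyond their SE. Sqle measured 22.4, 23.2 and 25.1 RPKM in wild type against 42.8, 44.0 and 56.5 in knockout (log2 fold change 0.99 ± 0.13 SE, adjusted p = 0.00506). KO 4 was the highest by a margin, and without it Sqle (0.87) came below Mvd (0.90). The call of Sqle, like that of Mvd, was kept in all 16 alternatives (adjusted p at most 0.0354 and 0.0431). The ratio of the Sqle level to the Fdft1 level was 0.748 to 0.803 in wild type and 0.879 to 1.15 in knockout, without overlap (exact permutation p = 0.1). Lss, which closes the ring to lanosterol, was far lower at 2.84 ± 0.971 and 4.4 ± 1.33 RPKM, with WT 1 the lowest library at 1.74 and the groups overlapping (adjusted p = 0.350).

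Of the 6 enzymes between lanosterol and cholesterol, 3 rose. Cyp51, the lanosterol demethylase, measured 18.3, 16.4 and 22.1 RPKM in wild type against 29.6, 32.3 and 37.2 in knockout (log2 fold change 0.79 ± 0.14 SE, adjusted p = 0.0238). Its exons share 166 bases with those of Akap9 on the other strand, and Akap9, a scaffold protein gene, was called lower, with 4.28 ± 0.729 RPKM in wild type, against 1.72 ± 0.373 for the knockout libraries (adjusted p = 0.0240). Dhcr7, the reductase of the last step, measured 47.4, 45.9 and 58.2 RPKM in wild type against 78.7, 83.7 and 74.3 in knockout (log2 fold change 0.65 ± 0.11 SE, adjusted p = 0.0227). Ebp, the sterol isomerase, measured 38.4, 31.5 and 32.3 RPKM in wild type against 51.5, 53.5 and 48.9 in knockout (log2 fold change 0.59 ± 0.11 SE, adjusted p = 0.0275). All 3 were clear of overlap, but leaving out any of WT 1, WT 3, KO 2 and KO 3 ended the calls of Cyp51 and Dhcr7 (adjusted p up to 0.10 and 0.117). For Ebp any of WT 3, WT 4, KO 2 and KO 3 did so (up to 0.144), and all 3 calls ended when low genes were left unfiltered.

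The other 3 enzymes of this stretch were not called. Hsd17b7, a sterol reductase gene, measured 2.96, 2.76 and 4.22 RPKM in wild type against 4.93, 5.37 and 5.97 in knockout, without overlap (log2 fold change 0.65 ± 0.19 SE, adjusted p = 0.137). It lies on chromosome 1 (169949535 to 169969242, GRCm38), where 13 of the 57 other tested genes within 5 Mb were called (22.8%). Nsdhl, a sterol dehydrogenase gene, was just clear of overlap at 15.9 ± 1.5 and 18.9 ± 1.87 RPKM (adjusted p = 0.381), and Tm7sf2, a sterol reductase gene, overlapped at 5.12 ± 0.928 and 7.11 ± 2.07 (0.410).

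Among the genes that control SREBP2, Insig1 rose and its paralogue did not. Insig1, itself a known SREBP2 target, measured 5.22, 6.57 and 6.10 RPKM in wild type against 11.1, 10.1 and 11.3 in knockout (log2 fold change 0.82 ± 0.14 SE, adjusted p = 0.0234). Insig1 was no longer called without WT 4, KO 2 or KO 3 (at most 0.115) or when low genes were left unfiltered (0.0727), and 5 of 70 other tested genes within 5 Mb on chromosome 5 were called (7.14%). Insig2 measured 37.3, 32.6 and 39.0 RPKM in wild type against 29.7, 30.2 and 36.5 in knockout, with KO 4 inside the wild-type range (log2 fold change -0.18, 95% interval -0.45 to 0.09, adjusted p = 0.50). Insig2 was the more abundant in every library. The ratio of the Insig1 level to the Insig2 level was 0.140 to 0.202 in wild type and 0.310 to 0.376 in knockout, without overlap (exact permutation p = 0.1).

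The SREBP2 precursor and its handlers did not pass the test. Srebf2, which encodes SREBP2, measured 20.4, 32 and 30.8 RPKM in wild type against 40.4, 46.7 and 33.5 in knockout. The groups did not overlap, but WT 1 was well below the other wild-type libraries (log2 fold change 0.54, 95% interval 0.13 to 0.95, adjusted p = 0.202). Scap was at 54.2 ± 9.97 and 62.2 ± 13.3 RPKM (adjusted p = 0.615) and Mbtps1, the first of the proteases, at 32.6 ± 10.9 and 37.7 ± 3.19 (0.571). WT 1 was the lowest wild-type library for both of these, at 44.3 and 21.3. Mbtps2, the second protease, was at 1.63 ± 0.152 and 1.31 ± 0.285 RPKM (adjusted p = 0.562), with 36.1% of its exonic bases shared with Yy2, a gene on the same strand. Without WT 1 the median log2 fold change of these 6 genes went from 0.22 to 0.020, and without WT 3 it was 0.40.

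The LXR and efflux arm showed no called change. Nr1h2, which encodes LXR beta, measured 104, 99.2 and 94.9 RPKM in wild type against 107, 114 and 93.9 in knockout (log2 fold change 0.08, 95% interval -0.14 to 0.30, adjusted p = 0.725). Nr1h3, which encodes LXR alpha, was at 2.05 ± 0.369 and 2.61 ± 0.326 RPKM (adjusted p = 0.468), so that the LXR beta gene stood 38.9 to 58.1 times higher in wild type and 35.9 to 47.4 times higher in knockout. Abca1, the exporter that loads apolipoproteins with cholesterol, measured 6.00, 11.7 and 7.67 RPKM in wild type against 6.96, 6.27 and 7.08 in knockout. WT 3 stood alone above all other libraries (log2 fold change -0.25, 95% interval -0.74 to 0.23, adjusted p = 0.586).

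Abcg1, the exporter to high-density lipoprotein, measured 6.12, 6.86 and 7.78 RPKM in wild type against 9.0, 8.05 and 8.85 in knockout. The groups did not overlap, and the difference missed the threshold (log2 fold change 0.30, 95% interval -0.02 to 0.63, adjusted p = 0.345). The Abcg1 level was 0.585 to 1.02 times the Abca1 level in wild type, with WT 3 the lowest, and 1.25 to 1.29 times in knockout, without overlap (exact permutation p = 0.1, 0.175 adjusted over the 7 ratios). Apoe, whose product carries exported cholesterol, measured 226, 205 and 163 RPKM in wild type against 233, 226 and 180 in knockout, the groups overlapping throughout (log2 fold change 0.11, adjusted p = 0.730). Apoe, Abca1 and Nr1h3 are also genes of macrophages, and of the macrophage list (15 genes, 6 high enough to test) Fcer1g alone was called, lower. Fcer1g lies among the 13 called genes within 5 Mb of Hsd17b7 on chromosome 1. The macrophage list summed to 398 to 452 RPKM in wild type and 258 to 355 in knockout, most of it Vcam1 and Fcer1g. Fcer1g was at 215 to 232 RPKM in wild type and 55.5 to 115 in knockout, while Vcam1 was at 155 to 183 and 174 to 212. Of the other genes tested, Lyz2 was at 5.75 to 18.8 RPKM over all libraries and Hmox1 at 12.6 or more. Tyrobp was at 1.67 to 4.28 and Spic at 1.28 to 2.63. The median log2 fold change of the 6 tested was -0.40, with Vcam1 (0.11) and Hmox1 (0.044) above 0. Csf1r and Adgre1, also on the list, never exceeded 0.16, and 8 of the 15 stayed under 1 RPKM in every library. In bulk RNA, fewer cells of a type and less RNA per cell cannot be told apart.

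Uptake, storage and carriage gave no call. Of the 2 uptake genes only Mylip was tested, since the receptor gene Vldlr was below the filter. Mylip measured 21.2, 23.6 and 22.1 RPKM in wild type against 31.3, 24.9 and 33.8 in knockout, without overlap but with KO 3 close to wild type (log2 fold change 0.41, 95% interval 0.12 to 0.70, adjusted p = 0.180). Soat1, which esterifies cholesterol for storage, was at 3.25 ± 0.740 and 3.42 ± 0.406 RPKM (adjusted p = 0.871). Osbp, which moves sterol between membranes, was at 17.9 ± 4.05 and 18.1 ± 0.0652 RPKM (adjusted p = 0.933). For these last 2 genes the 95% intervals, -0.36 to 0.51 and -0.31 to 0.38, leave room for changes in either direction.

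The enzymes tended to rank the libraries alike within a genotype, and such ranks were not counted over all genes. Among the wild-type libraries WT 3 was the lowest for 14 of the 17 enzymes and WT 4 the highest for 14, and among the knockout libraries KO 2 was the lowest for 13. The levels of the 17 summed to 395, 369.8 and 444 RPKM in wild type against 549, 593 and 641 in knockout, so no wild-type library reached the lowest knockout library. Median deviations from the wild-type mean were -0.01, -0.14 and 0.17 on the log2 scale in wild type against 0.49, 0.64 and 0.65 in knockout. The SREBP2 processing genes followed another order, with a median deviation of -0.22 in WT 1 and 0.18 in WT 3, and 0.25, 0.43 and 0.075 in KO 2, KO 3 and KO 4. For the LXR and efflux genes KO 4 at -0.078 lay below all of wild type (-0.022, 0.00093 and -0.063), while KO 2 and KO 3 were at 0.24 and 0.20. These are sums and medians over related genes of the same libraries and carry no test.

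**Figure D4:**
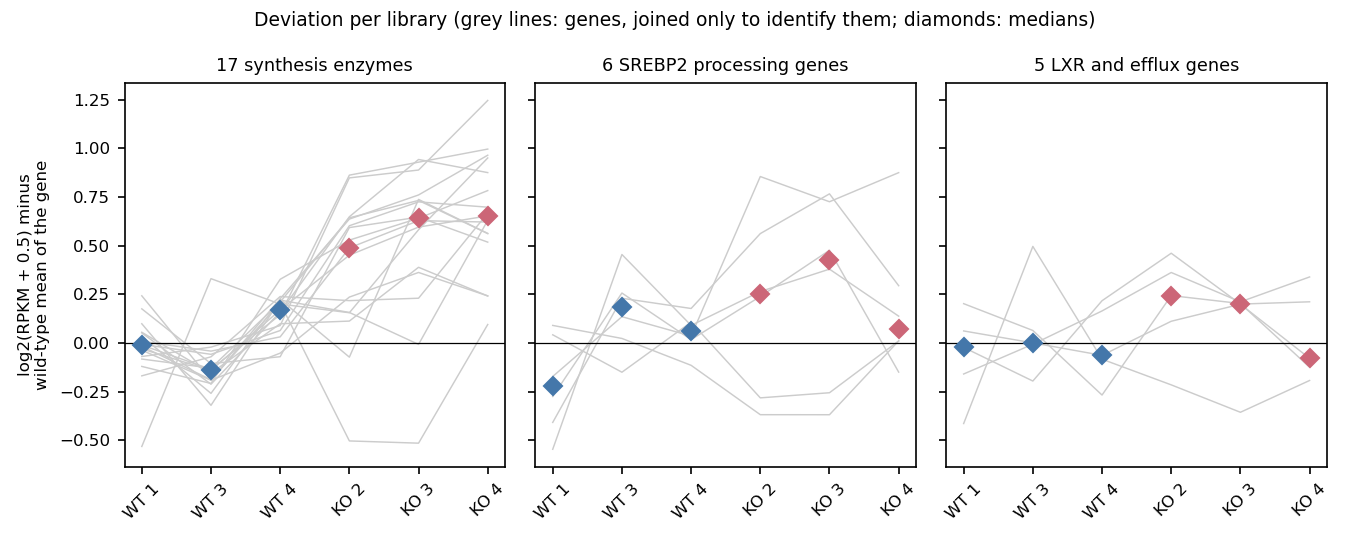
Deviation of each gene from its wild-type mean in each library, in log2(RPKM + 0.5), for the synthesis, SREBP2 processing and LXR and efflux genes; grey lines are genes and diamonds library medians. The knockout medians of the synthesis enzymes (0.49 to 0.65) lie above the wild-type medians (-0.14 to 0.17), and those of the other arms overlap.

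Other genes of sterol metabolism were examined in 6 lists by role. All 76 were found, 4 of them under an older symbol, 69 were high enough to test and none was called in limma, with 12 higher and 6 lower at an unadjusted p under 0.05 (18 of 69, against 15.7% of all genes tested) and 1 called in voom, Pggt1b. The 8 further synthesis genes came nearest to the enzymes above, with 7 of 8 above 0 (54.3% of all genes), 6 higher at an unadjusted p under 0.05 (15.7% of all genes in either direction) and a median log2 fold change of 0.35. The gene of smallest p among them, Msmo1, a sterol oxidase listed as Sc4mol, measured 156, 108 and 151 RPKM in wild type against 169, 196 and 217 in knockout (adjusted p = 0.157). Of the 14 other SREBP control genes Srebf1, which encodes SREBP1, had the smallest p, at 17.5 ± 2.92 and 27.0 ± 1.51 RPKM without overlap (log2 fold change 0.62 ± 0.14 SE, adjusted p = 0.0596). The Srebf2 level was 1.44 to 1.69 times the Srebf1 level in wild type and 1.31 to 1.74 times in knockout.

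The branches that use isoprenoids for other ends had a median of 0.07 over 14 tested genes. Pggt1b, a subunit gene of the enzyme that attaches geranylgeranyl groups to proteins, measured 12.6, 11.4 and 12.9 RPKM in wild type against 5.80, 5.23 and 8.88 in knockout (log2 fold change -0.88 ± 0.19 SE, adjusted p = 0.0534, and 0.00054 to 0.216 over 16 alternatives). The groups did not overlap. The lowest of these adjusted p came with library quality weights, which called 33.1% of all genes. With GC and length trends removed, the log2 fold change of Pggt1b was -0.48 (adjusted p in limma 0.104). Medians were 0.07 for other uptake and lysosomal genes (6 tested, smallest p Scarb1, adjusted p = 0.412), 0.05 for other storage and carriage genes (15 tested, Osbpl10, 0.115) and 0.01 for other LXR and oxysterol genes (12 tested, Ncor1, 0.186).

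Markers of cells and states were read in the same libraries. The 10 endothelial markers, 0 of them called, had a median log2 fold change of 0.19. Their levels summed to 2429 to 2906 RPKM in wild type and 2754 to 3179 in knockout. Of 8 sinusoidal endothelial genes, 6 high enough to test, Clec4g (log2 fold change -1.25, adjusted p = 0.00106) and Fcgr2b (-2.47, 0.00455) were called lower. The list summed to 2463 to 2900.3 RPKM in wild type against 1705 to 1880 in knockout, without overlap. Clec4g alone was at 1541 to 1797 RPKM in wild type and 618 to 815 in knockout. The median log2 fold change of the 6 was 0.04. Gpr182 (0.41, adjusted p = 0.0530), Oit3 (0.24) and Stab2 (0.10) were above 0 and Mrc1 (-0.02) below. Fcgr2b lies among the 13 called genes within 5 Mb of Hsd17b7. Of 16 genes of tissue dissociation and early response 1 was called, Hspa8, higher, with a median of 0.20 over the list, and they summed to 6349 to 7040 RPKM in wild type and 6942 to 8153 in knockout. Of 11 megakaryocyte genes 1 was called, Pf4, lower, with a median of -0.84, and they summed to 95.6 to 263 and to 65.5 to 82.6, without overlap. Erythroid sums overlapped (34.8 to 123 and 18.7 to 91.0, with Hba-a1 listed at 0), and B and T cell sums were 1.95 or less. Of 11 reticular cell genes, 9 high enough to test, Cxcl13 was called lower (log2 fold change -1.91, adjusted p = 0.00159), with a median of -0.19 over the 9. The list summed to 343, 148 and 145 RPKM in wild type and to 143, 115 and 103 in knockout, just without overlap. Cxcl13 alone was at 43.7 to 76.0 RPKM in wild type and 14.2 to 19.1 in knockout. In WT 1, the highest library, Dcn was at 96.1. The part of all these markers in the sterol results was not tested.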

How the data were processed

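RNA-seq of sorted spleen endothelial cells gave 3 wild-type and 3 Stab1-/- libraries. Nextera XT libraries were prepared from cDNA of a SMART-Seq kit, per the labels' protocols. STAR 2.5.2b, Subread, edgeR, limma and mm10 are named, per the submitters' processing notes, without order or settings. The authors deposited RPKM per gene and library, per the file headers. The authors' deposited table of the comparison gives mean RPKM, log2 fold changes, a signed fold score, a rank score and p-values, per the file headers. Columns carry a genotype and a number other than the labels' replicate number, so each was assigned to its genotype only.

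Dividing by the worth of 1 read gave whole reads for 17683 of 17683 genes above 0 (100%, tolerance 0.001), which gave depth and the reads for voom. Genes that reached 1 RPKM in 3 or more libraries were fitted as log2(RPKM + 0.5) on genotype with limma 3.58.1 (R 4.3.3, variance trend, Benjamini-Hochberg over all genes, threshold 0.05), a script also tested on simulated data. RPKM are not counts, so the test was made on log2 values, and the recovered reads were tested only with voom, as an alternative. Ratios of levels were tested by exact permutation (scipy 1.17.1), and 7 were computed. Promoters and coordinates are RefSeq GRCm38, exon overlaps and GC content GENCODE M21. The genes and lists were chosen with earlier results of these data known. All 32 genes are described, and of the related lists each called gene or else that of smallest p. The 16 alternatives changed the pseudocount, filter, scaling, weights, block or libraries, or used voom, or removed GC and length trends by loess.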

Additional observations from a re-analysis of the deposited data

How the results depend on the processing

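Of the 9 called genes, Sqle and Mvd kept their call in all 16 alternatives, and of the 22 tested genes that were not called, 13 were called in none. The number called higher went from 9 to 2 to 8 when a library was left out, and to 3 with no filter on low values. Leaving out the filter adds genes to the adjustment and also changes the moderated variances (SE of Mvk 0.110 with the filter, 0.0818 without). With library quality weights 14 were called higher and 2 lower. None was called lower elsewhere. Of all genes, 0.507% to 3.79% were called in either direction without a library, 0.435% with no filter and 33.1% with quality weights, against 1.94%. The median of the synthesis enzymes was 0.38 with quality weights and 0.55 to 0.65 without a library. The LXR and efflux median was 0.046 to 0.22 without a library. Among related genes, quality weights called 20 higher and 10 lower, median centring 1 higher, removal of GC and length trends 2 higher, voom 1 lower, and leaving out a library 0 to 1 in each direction. A block for the column number, which only WT 3 with KO 3 and WT 4 with KO 4 share (correlations of their deviations 0.193 and 0.193; a pair of matches does not show pairing), called 10 sterol genes and 2 related genes in each direction, 355 genes against 214 in all, and moved the SREBP2 processing median to 0.0063. Signs turned only for genes that were not called: under the block Mbtps1 (-0.014), Soat1 (-0.049) and Osbp (-0.082), after removal of GC and length trends Ggps1 (0.0099), Mbtps2 (0.086), Osbp (-0.035) and Nr1h2 (-0.010), and without a library Mbtps1 (-0.012 to 0.49), Soat1 (-0.065 to 0.22), Osbp (-0.080 to 0.20) and Apoe (-0.026 to 0.22). The cause was not tested. Members with a CCAAT, GC box, E-box, sterol element or GGTCA pair match in the window reaching 50 bases past the start were 18, 20, 4, 1 and 0, against 18, 18, 3, 1 and 0. The error from counting reads is small for genes at several RPKM, though the number of RNA molecules behind them is not known. Precision is limited by the spread over 3 libraries a group.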
